A study of Mus musculus with 6 samples.

Results

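A set of 10 lens genes was followed through retinal RNA of mouse embryos: the gamma crystallin genes Cryga, Crygb, Crygc, Crygd, Cryge and Crygf, and the lens fibre genes Mip, Lim2, Bfsp1 and Bfsp2. They were taken by symbol from a table of 23441 genes, and all 10 were listed there. They were chosen with their levels in these libraries already known, so the difference between the genotypes in these genes is a description, and calls counted for them below are no test of it. Polyadenylated RNA from dissected retinae at embryonic day 14.5 was sequenced from 3 control and 3 conditional knockout (CKO) samples. Controls were Ronin flox/flox. CKO samples were Ronin flox/flox as well and also carried 1 copy (+/tg) of a Cre::GFP transgene, and their source label calls the knockout specific to retinal progenitor cells (RPC). Ronin is the protein of Thap11, a zinc finger transcription factor. The control genotype lists no Cre transgene, and the labels give both genotypes the same mixed background of C57/B6, SJL/B6, 129/Sv and FVB. They do not say how many embryos, eyes or litters gave a sample, so a p-value here reflects spread among the sequenced samples only, and that spread can be technical.

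The lens is a body of transparent cells in front of the retina, with an epithelium over its anterior face and elongated fibre cells behind it. Fibre cells fill with crystallins, soluble proteins that give the lens its refractive power, and later lose their nuclei and organelles. Alpha crystallins are small heat shock proteins that are also made in lens epithelium, whereas gamma crystallins are made almost only as fibre cells differentiate. The fibre membrane is rich in the water channel aquaporin 0, the product of Mip, and in the membrane protein encoded by Lim2. Bfsp1 and Bfsp2 encode filensin and phakinin, which assemble into the beaded filament, a cytoskeletal structure typical of the lens. None of the 10 genes is a usual marker of the neural retina.

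The labels were checked first. Thap11 had 68.2, 82.0 and 71.5 CPM (counts per 1000000 reads of the scaled library) in control replicates 1 to 3 and 11.2, 10.9 and 6.38 CPM in CKO replicates 1 to 3, so the groups did not overlap. Libraries held 23721052 to 28504391 counted reads. The summed level of 5 markers of retinal progenitors (Rax, Lhx2, Hes1, Fgf15 and Ccnd1) was 5894 to 6346 CPM in the controls and, overlapping them, 5347 to 5931 CPM in CKO libraries. The summed level of 7 markers of retinal neurons was 1865 to 1941 CPM in the controls, against 2103 to 2153 CPM in the CKO.

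The 6 gamma crystallin genes are close copies, and the DNA before an annotated start site of each is shown here as a description. RefSeq places them on mouse chromosome 1 (build GRCm38.p6), with Cryga to Cryge within 54.8 kb on the minus strand and Crygf 823 kb away on the plus strand. Each line below gives 66 bases that end with the first TATATA of the run nearest the annotated start site (in Cryga and Crygb the run goes on for 2 more letters, not shown). Capitals mark TTTGTG and TATATA, the longest runs of letters that all 6 stretches share. The Cryge stretch lies before the start site used for its window but inside the RefSeq gene interval (chr1:65048555-65051816).
Cryga (chr1:65103397-65103462, minus strand): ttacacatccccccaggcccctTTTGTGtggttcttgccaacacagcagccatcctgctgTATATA
Crygb (chr1:65082315-65082380, minus strand): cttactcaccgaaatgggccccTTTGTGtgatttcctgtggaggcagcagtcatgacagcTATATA
Crygc (chr1:65073556-65073621, minus strand): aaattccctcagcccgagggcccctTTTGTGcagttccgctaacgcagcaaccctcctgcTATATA
Crygd (chr1:65063465-65063530, minus strand): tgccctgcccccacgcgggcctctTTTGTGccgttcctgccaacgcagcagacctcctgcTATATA
Cryge (chr1:65051176-65051241, minus strand): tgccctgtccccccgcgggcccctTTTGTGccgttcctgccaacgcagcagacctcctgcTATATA
Crygf (chr1:65926430-65926495, plus strand): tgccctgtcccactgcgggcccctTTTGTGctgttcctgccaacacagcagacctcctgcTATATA

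The stretches of Crygd, Cryge and Crygf are nearly the same: aligned identity was 95.5% for Crygd and Cryge, 93.9% for Cryge and Crygf and 89.4% for Crygd and Crygf. Crygb was the least alike, at 64.3% to 65.2% identity with the other 5. Windows of 300 bases (250 before and 50 after each start site) were searched on both strands for 5 strings of letters, and the same was done for all 32851 windows of that length in the table. TATATA occurred in the windows of all 6 gamma genes and in none of the 4 other members, against 5.67% of all windows. TTTGTG, picked after the sequences were seen, likewise occurred in the 6 gamma windows and in none of the 4 other members, against 17.7% of all windows. CTTTGT, the letters most SOX factors prefer and overlapping TTTGTG in Crygb, was in the windows of Cryga, Crygb and Lim2 (18.7% of all windows). TGCTGA, a core of the sites of MAF factors, was in those of Cryga, Crygc, Mip, Lim2 and Bfsp1 (19.5% of all windows). The THAP11 and HCF-1 element, known from promoters that THAP11 binds with its partner HCF-1, was in none of the 10 windows and in 1.81% of all windows. A match is a string of letters and no measured site, and the absence of a string covers these windows only.

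The likeness extends into the transcripts and bears on how reads could be assigned. Coding sequences were 98.1% identical between Cryge and Crygf, 91.6% between Crygd and Cryge, 90.7% between Crygd and Crygf, and 79.2% to 84.0% for the remaining pairs. Of all stretches of 50 bases in the Cryge transcript, 57.0% also occurred in another gamma transcript. That share was 34.9% for Crygf, 34% for Crygd, 31.3% for Crygc, 29.4% for Crygb and 5.73% for Cryga. Read length and the treatment of reads that match several places are not stated by the labels, so counts of single gamma genes, Crygd, Cryge and Crygf above all, are uncertain, and their sum is less so.

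All 6 gamma genes were very low in every control, very high in CKO replicate 1, lower but still far above the controls in CKO replicate 3, and at or near the control level in CKO replicate 2. For Cryga, 26, 4 and 13 reads were counted in control replicates 1 to 3, against 22529, 21 and 1779 in the CKO replicates in the same order. Cryge had 36, 10 and 13 reads in the controls and 22293, 31 and 1671 in the CKO. In both genes CKO replicate 2 lay among the controls, whereas CKO replicates 1 and 3 lay far above them. Crygd had 17, 4 and 15 reads in the controls and 16006, 29 and 1424 in the CKO. Crygb had 8, 10 and 12 reads in the controls and 9150, 8 and 936 in the CKO, and was the gamma gene whose CKO replicate 2 was below every control once scaled, at 0.299 CPM against 0.314 to 0.457 CPM. Crygf went from 11, 7 and 3 reads to 8082, 15 and 931 reads, and Crygc from 11, 4 and 7 reads to 7454, 22 and 592 reads. In Crygc, Crygd and Crygf every CKO library was above every control, with CKO replicate 2 at 1.90, 1.62 and 1.30 times the highest control.

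On the scaled level, the sum of the 6 gamma genes was 4.28, 1.70 and 2.40 CPM in the controls, against 2959, 4.70 and 299.8 CPM in CKO replicates 1 to 3. The SD of the CKO exceeded its mean in each of the 6 genes: Cryga was at 0.563 ± 0.427 CPM in the controls, against 284 ± 430 CPM in CKO libraries (mean ± SD, n = 3 each). In CKO replicate 1 the gamma genes stood at 546 (Cryge) to 830 (Crygd) times the highest control. In CKO replicate 3 they stood at 48.3 (Cryge) to 88.2 (Crygf) times the highest control.

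**Figure D1:**
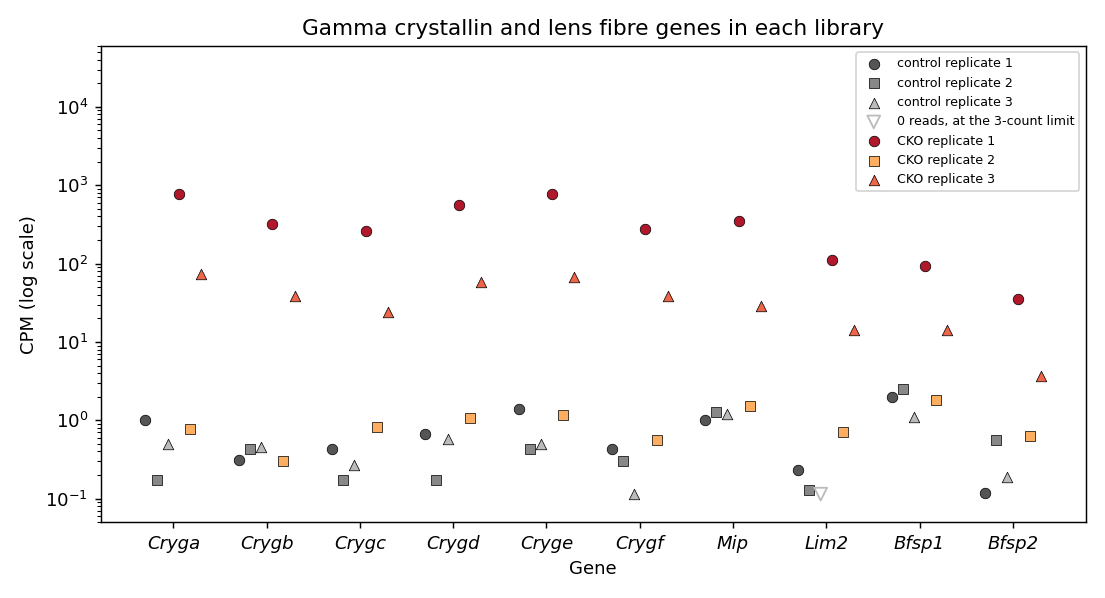
Level of each of the 10 genes (CPM, log axis) in 3 control and 3 CKO libraries, 1 point per library, with Lim2 in control replicate 3 (0 reads) drawn at the limit of 3 counts. In each gene CKO replicate 1 is the highest and CKO replicate 3 the second, while CKO replicate 2 sits at or near the controls.

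Membrane genes of the fibre cell followed the same order of libraries. In GRCm38.p6 Mip lies at chr10:128225810-128231812 and Lim2 at chr7:43430099-43435996, away from the gamma cluster. Mip, the aquaporin 0 gene, had 26, 29 and 32 reads in the controls and 9999, 41 and 702 reads in the CKO. Its CKO replicate 2 was above each control, at 1.21 times the highest. Lim2 had 6, 3 and 0 reads in the controls and 3195, 19 and 351 in the CKO, where a count of 0 allows up to 0.114 CPM in control replicate 3. Lim2 was the member for which CKO replicate 2 stood farthest above the controls, at 0.709 CPM against 0 to 0.235 CPM, or 3.01 times the highest control, from 19 reads.

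The beaded filament genes, Bfsp1 at chr2:143826528-143915219 and Bfsp2 at chr9:103424924-103480405, were the members with the smallest differences. Bfsp1 had 50, 58 and 29 reads in the controls, the most of any member there in control replicates 1 and 2, and 2683, 48 and 345 reads in the CKO. Bfsp2 had 3, 13 and 5 reads in the controls and 1022, 17 and 91 in the CKO. In CKO replicate 3 these genes stood at 5.58 (Bfsp1) and 6.56 (Bfsp2) times the highest control, while Mip stood at 22.7 and Lim2 at 60.9 times. Bfsp1 in CKO replicate 2, at 1.79 CPM, lay within the control range of 1.10 to 2.53 CPM.

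Counted over the 10 members, CKO replicate 1 was over 10 times the highest control in all 10, CKO replicate 3 in 8 (all but Bfsp1 and Bfsp2), and CKO replicate 2 in none. Among the 14609 genes tested, 0.178% passed that mark in CKO replicate 1, 0.123% in CKO replicate 3 and 0.0274% in CKO replicate 2. CKO replicate 2 was above the highest control in 6 of the members, against 14.4% of all genes tested, and since the other CKO libraries were higher still, these 6 (Crygc, Crygd, Crygf, Mip, Lim2 and Bfsp2) were also the ones whose groups did not overlap, against 5.74% of all genes tested with the CKO higher and 6.91% with it lower. All 10 members had the order CKO replicate 1, then 3, then 2, which 20.5% of all genes tested shared. Nothing is read from these counts about the genotype, since the members were chosen on the same values.

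The fitted log2 fold change (CKO minus control) was between 4.29 (Bfsp1) and 8.95 (Cryga), with a median of 8.35 over the 10 members and -0.04 over all genes with a read. Without CKO replicate 1 the median was 5.51. All 10 members passed the filter on low counts, which they could do through the CKO libraries alone. The calls that the fits over all genes made among the members are given for completeness, and nothing is read from them, since the same values chose the members. By edgeR's quasi-likelihood test with Benjamini-Hochberg adjustment over all genes, 0 of the 10 were called at an adjusted p under 0.05 (0.192% of all genes were called higher, 0.705% lower and 0.897% either way), 10 had an unadjusted p under 0.05 (2.22% of all genes among higher ones, 6.58% either way), DESeq2 called all 10 (0.817% of genes called higher) and limma-voom called 0 (0.185%). The edgeR fit without CKO replicate 2, the CKO library nearest the controls in these genes, called 24 genes higher and 29 lower over all genes, and 8 of the higher ones were members, all but Bfsp1 and Bfsp2, which the choice of members and of this library fixes. In this bulk tissue more cells of a type and more RNA per cell cannot be told apart.

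The CKO libraries were far apart in these genes. The highest CKO library was 51.8 (Bfsp1) to 1061 (Crygb) times the lowest, with a median of 407 times over the members, whereas the median over all genes tested was 1.14 times and the 95th percentile 1.98 times. Among the controls the highest library was 1.24 (Mip) to 5.85 (Cryga) times the lowest in the 9 members with a read in every control, against a median of 1.55 times over all genes tested. The SD of log2 CPM over the CKO libraries was 2.82 to 4.99 for the members and had a median of 0.10 over all genes tested.

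The ratio between CKO replicates 1 and 3 was of the same order in all 10 members. CKO replicate 3 held 8.29% of the CKO replicate 1 level for Mip, 8.85% for Cryge, 9.33% for Cryga, 9.38% for Crygc, 10.5% for Crygd and for Bfsp2, 12.1% for Crygb, 12.98% for Lim2, 13.6% for Crygf and 15.2% for Bfsp1. Alpha crystallins stood below this range, at 5.42% for Cryaa and 5.32% for Cryab. The beta crystallin genes with reads in both libraries were below it too, between 6.34% (Crybb3) and 7.80% (Cryba4). Crygs was lower still, at 1.97%, from 9 reads in CKO replicate 3. Crygn, at 8.12% from 146 reads in CKO replicate 3, was close to Mip, and no order is read from these 2 values.

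The level per kb of transcript was compared between genes within a library. In CKO replicate 1 it was 1247 CPM per kb for Cryga, 1223 for Cryge and 904 for Crygd, followed by 499 for Crygb, 446 for Crygf and 421 for Crygc. The membrane genes were lower, at 161 CPM per kb for Mip and 125 for Lim2, and the filament genes lowest, at 43.0 for Bfsp1 and 21.3 for Bfsp2. In CKO replicate 3 the first 3 places were the same, with 116 CPM per kb for Cryga, 108 for Cryge and 94.96 for Crygd. Crygf (60.7) and Crygb (60.4) were then level, Crygc had 39.5, and Lim2 (16.2) stood above Mip (13.4), the reverse of CKO replicate 1. In CKO replicate 2 and the controls the levels were at most 2.24 CPM per kb, and no order was read from them.

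Shares of each gene among the gamma A to F reads describe how the family was made up, free of library scaling. Cryga held 26.3% of these reads in CKO replicate 1 (95% Wilson interval 26.1% to 26.6%) and 24.3% (23.3% to 25.3%) in CKO replicate 3. Cryge held 26.1% and 22.8%, and Crygd 18.7% and 19.4%. Crygf held 9.45% (9.26% to 9.65%) in CKO replicate 1 and 12.7% (11.95% to 13.48%) in CKO replicate 3, so that these intervals did not overlap. Crygb likewise held less in CKO replicate 1 (10.7%) than in CKO replicate 3 (12.8%, 12.02% to 13.55%), and Crygc held 8.72% and 8.07%. In CKO replicate 2 the 126 gamma reads gave wide intervals, for example 11.8% to 25.0% for Crygc. These intervals hold counting error alone: with no molecular identifiers, several reads can stem from 1 molecule.

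The make-up of the 4 fibre genes was described in the same way. Mip held 59.2% of their reads in CKO replicate 1 (58.4% to 59.9%) and 47.1% in CKO replicate 3 (44.6% to 49.7%), against 30.6%, 28.2% and 48.5% in control replicates 1 to 3. Bfsp1 was the other way round, at 58.8%, 56.3% and 43.9% in the controls, 38.4% in CKO replicate 2, 23.2% in CKO replicate 3 and 15.9% in CKO replicate 1. The share of Bfsp1 was thus lowest in the libraries with the most fibre gene reads. Lim2 held 18.9% in CKO replicate 1 and 23.6% in CKO replicate 3, and Bfsp2 held 6.05% and 6.11%.

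**Figure D2:**
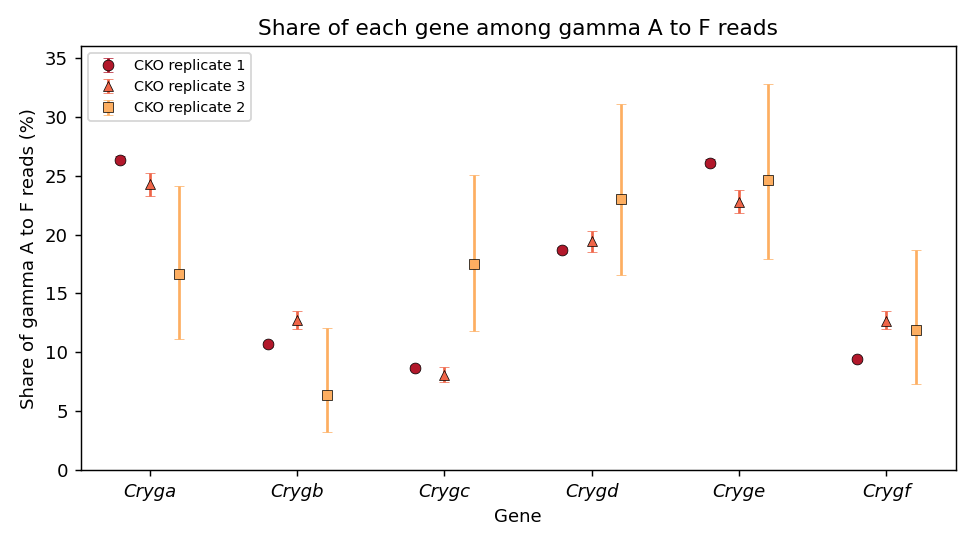
Share of each gene among the summed reads of Cryga to Crygf (%, linear axis from 0) in the 3 CKO libraries, with 95% Wilson intervals that cover counting error only. Cryga and Cryge hold the largest shares in CKO replicates 1 and 3, and the intervals of CKO replicate 2 rest on 126 reads.

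The 10 members were then set beside the other lens crystallins. Reads of the members, the alpha and beta crystallin genes, Crygs and Crygn were summed as lens reads: 562, 305 and 370 in the controls, against 325898, 1796 and 20620 in CKO replicates 1 to 3, where they made up 1.14%, 0.00693% and 0.0869% of a library. Gamma A to F made up 26.2% of the lens reads in CKO replicate 1 (26.1% to 26.4%), 35.6% in CKO replicate 3 (34.9% to 36.2%) and 7.02% in CKO replicate 2 (5.92% to 8.29%). In the controls the share was 19.4%, 12.8% and 17.0%. Alpha crystallins, by contrast, made up 59.1% of the lens reads in CKO replicate 2 (56.8% to 61.3%), 29.2% in CKO replicate 1 and 21.2% in CKO replicate 3. Mip, Lim2, Bfsp1 and Bfsp2 together made up 5.19%, 6.96% and 7.22% in CKO replicates 1 to 3. CKO replicate 2 thus held 126 gamma reads, more than each control, within a larger number of alpha crystallin reads.

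**Figure D3:**
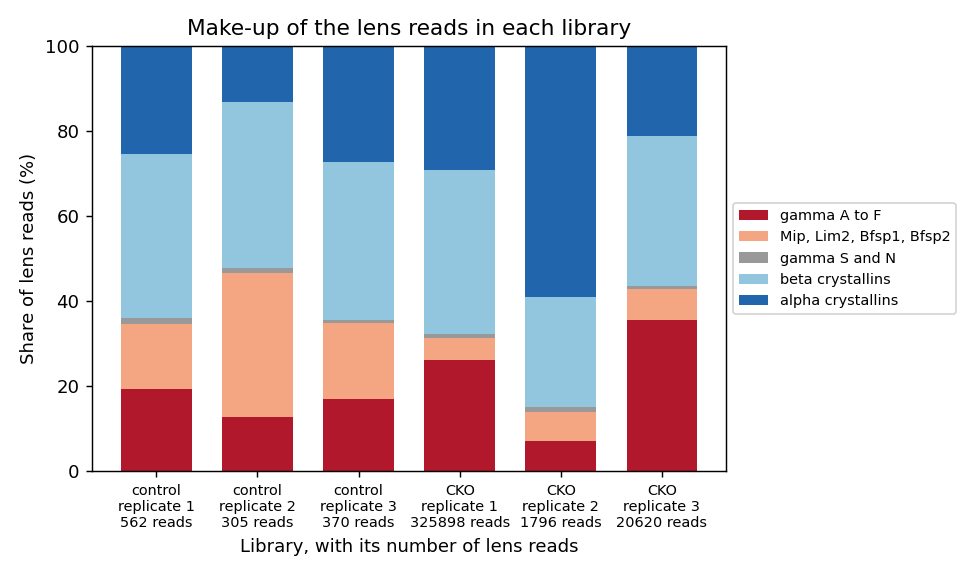
Make-up of the lens reads (% of the summed reads of the 10 members, the alpha and beta crystallins, Crygs and Crygn, stacked bars from 0 to 100) in each of the 6 libraries, with the number of lens reads under each bar. Gamma A to F take 35.6% in CKO replicate 3 and 7.02% in CKO replicate 2, where alpha crystallins take 59.1%.

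Single lens genes differed in which of CKO replicates 2 and 3 was the higher. Cryaa, the alpha A crystallin gene, had 3.96, 1.05 and 2.85 CPM in the controls, against 3237, 34.6 and 175 CPM in CKO replicates 1 to 3, so that CKO replicate 2 was 8.74 times the highest control. Gja3, a connexin gene of lens fibres, had 1 read in each control and 1204, 22 and 85 reads in the CKO. Foxe3, a transcription factor gene of the lens epithelium, had 0, 0 and 0.0761 CPM in the controls, against 7.89, 1.68 and 0 CPM in the CKO, so that it was listed at 0 in CKO replicate 3. Cdh1, which encodes E-cadherin of epithelia, had 0.628 to 1.05 CPM in the controls, against 11.4, 2.69 and 0.368 CPM in the CKO. These genes were picked after their values were seen, and CKO replicates 2 and 3 were not tested against each other, as each is 1 library.

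**Figure D4:**
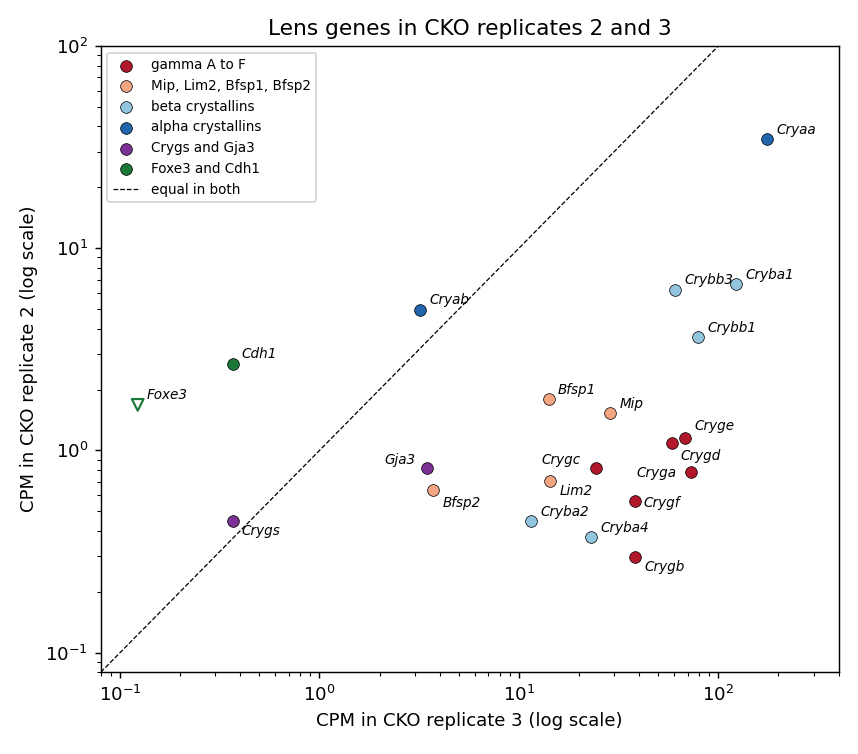
Level of lens genes in CKO replicate 3 (x axis) and CKO replicate 2 (y axis), both in CPM on log axes, 1 point per gene, with Foxe3, which had 0 reads in CKO replicate 3, drawn at the limit of 3 counts. The 10 gamma and fibre genes lie below the dashed line of equal levels, and Cryab, Crygs, Cdh1 and Foxe3 lie above it.

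The wider lens programme was read through lists of genes. In the list of alpha and beta crystallins 7 of 8 genes were tested, all 7 with a positive log2 fold change (median 7.70). By edgeR 0 were called (0.897% of all genes tested, either way) and 7 had an unadjusted p under 0.05 (6.58% of all genes). DESeq2 called 6 (0.817% of genes called higher). Genes with few control reads, such as Cryba2 (6, 0 and 3), could pass the count filter through the CKO libraries alone. The 2 other gamma crystallins, Crygs and Crygn, did not pass the count filter: Crygs had 0, 0 and 1 reads in the controls and 540, 12 and 9 in the CKO, and Crygn had 9, 4 and 2 reads in the controls and 2123, 8 and 146 in the CKO. Of 13 other lens fibre genes 8 were tested, with a median log2 fold change of 1.09, and 1 was called higher by edgeR (0.192% of all genes). This was Fyco1, an adaptor of autophagosome transport, which rose from 44.0, 52.0 and 56.5 CPM to 97.1, 112 and 112 CPM, a log2 fold change of 1.07 ± 0.15 (SE, edgeR adjusted p = 0.0200, range over alternatives 2.8e-08 to 0.157). Fyco1 had the lowest of its CKO levels in CKO replicate 1, where the 10 members were highest. Its call was lost without control replicate 3 (edgeR adjusted p = 0.0826), CKO replicate 1 (0.0798), CKO replicate 2 (0.126) or CKO replicate 3 (0.157).

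Transcription factors and signals that act in both lens and retina gave no call by edgeR. Where a pair of ranges is given, it names the controls first and the CKO second. Of all genes tested, edgeR called 0.897% either way, and 6.58% had an unadjusted p under 0.05. Of 13 lens transcription factor genes 12 were tested, 0 were called by edgeR, 1 had an unadjusted p under 0.05, and the median log2 fold change was 0.07. Of the 12, 8 had a positive and 4 a negative log2 fold change. Pax6, needed for lens and retina alike, had 775 to 873 CPM in the controls, against 840 to 922 CPM in the CKO, and Six3 had 378 to 475 and 410 to 459 CPM. Hsf4, a heat shock factor gene of lens fibres picked after its values were seen, had 0.262 to 0.799 CPM in the controls, against 6.71, 0.672 and 1.10 CPM in CKO replicates 1 to 3. Picked the same way, Maf had 13.8 to 18.1 CPM in the controls, against 44.2, 10.1 and 13.3 CPM in the CKO. Pitx3 had 0.989 to 1.92 CPM, against 6.54, 1.64 and 1.23 CPM. Sox1 had 7.06 to 10.9 CPM, against 15.6, 4.18 and 5.72 CPM. Maf, Pitx3 and Sox1 thus exceeded every control in CKO replicate 1 alone. Of 7 lens epithelium genes 6 were tested and 0 called (1 at an unadjusted p under 0.05), with Mab21l1 at 116 to 161 and 159 to 166 CPM and Epha2 at 25.2 to 33.6 and 29.6 to 31.3 CPM. Of the 6, 5 had a positive and 1 a negative log2 fold change. Foxe3 and Cdh1 of this list are given above. Pdgfra, picked after its values were seen, had 4.51 to 6.05 CPM in the controls, against 13.9, 5.97 and 3.97 CPM in the CKO. None of 10 FGF receptors and feedback targets was called by edgeR (1 at an unadjusted p under 0.05, median -0.17), with Etv5 at 103 to 126 and 90.4 to 110 CPM, while DESeq2 called Fgfr1, at 105 to 112 and 71.6 to 80.9 CPM, as lower. None of 9 basement membrane genes of the lens capsule was called either (2 at an unadjusted p under 0.05, median -0.18), with Col4a1 at 230 to 524 and 202 to 320 CPM and Sparc at 276 to 415 and 277 to 351 CPM.

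Markers of other tissues around the retina and of retinal neurons gave no call. No gene was called by edgeR or by DESeq2 among 6 tested surface ectoderm and cornea genes (0 at an unadjusted edgeR p under 0.05), 5 of periocular mesenchyme (1), 5 of pigment epithelium (2), 4 of the ciliary margin (1), 5 of blood vessels (1), 3 erythroid genes (1) and 4 of macrophages and microglia (0), or among the 7 neuronal markers (0). Over all genes tested, 0.897% were called by edgeR and 6.58% had an unadjusted edgeR p under 0.05. The median log2 fold changes of these lists lay between -0.63 (pigment epithelium) and 0.23 (retinal neurons). Summed surface ectoderm and cornea levels were 9.82 to 17.5 CPM in the controls, against 14.8, 9.78 and 14.9 CPM in CKO replicates 1 to 3, with Krt14 at 0 reads throughout. Those of periocular mesenchyme were 33.0 to 75.4 CPM in the controls, against 38.9, 19.4 and 42.4 CPM in the CKO, and those of pigment epithelium 32.9 to 65.2 and 28.9 to 31.4 CPM. Blood vessel markers summed to 268 to 323 CPM in the controls, against 258, 239 and 255 CPM in the CKO. Most of that sum was Kdr, at 247 to 306 and 232 to 243 CPM. Of the 5 vessel markers, 4 had a negative and 1 a positive log2 fold change. Kdr and Pecam1 (4.71 to 5.30 and 1.87 to 4.01 CPM) were lower in every CKO library than in every control. Erythroid markers summed to 4.07 to 16.0 CPM over all 6 libraries. The most abundant of each list were Epcam, Krt18, Col1a2, Col1a1, Trpm1, Dct, Zic1, Wfdc1, Kdr, Cdh5, Alas2, Hbb-y, Csf1r and Cx3cr1. The defining lens genes, the members and the alpha and beta crystallins, were highest in CKO replicate 1, as given above by their summed lens reads. The part of lens tissue in the CKO difference was not tested.

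Genes outside the set were ranked by how alike their profile was. Over the 6 libraries, Pearson correlations of log2 CPM between 2 members lay between 0.925 and 0.997. Of 15288 other genes compared with the mean profile of the members, the 8 most alike were Crybb1 (r = 0.998), Gje1 (0.997), Dnase2b (0.994), Crygn (0.994), Gm833 (0.991), Cryba4 (0.990), Cryba2 (0.989) and Crybb3 (0.987). These 8 are 4 beta crystallin genes, the gamma N crystallin gene, Gje1 of the connexin family, Dnase2b, whose enzyme degrades DNA in fibre cells, and Gm833. Gje1 had 1, 0 and 0 reads in the controls and 873, 1 and 58 reads in the CKO. Dnase2b had 0 reads in all 3 controls and 57, 0 and 11 reads in the CKO, and Gm833 had at most 11 reads in a library. The correlations share the same 6 libraries, of which CKO replicate 1 was the extreme one, and no p was computed.

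Among all 14609 genes tested, 18 stood at over 10 times the highest control in CKO replicate 1 and again in CKO replicate 3. They were the 6 gamma crystallin genes, Mip and Lim2, 6 alpha and beta crystallin genes (Cryaa, Cryba1, Cryba2, Cryba4, Crybb1 and Crybb3), Gja3, and 3 genes outside the lens lists, 1700034P13Rik, Akp3 and Alppl2. Of the genes tested, only Gja3 and those 3 genes passed the same mark in CKO replicate 2, Gja3 with 22 reads against 1 in each control. Akp3 and Alppl2 had no reads in any control, and 1700034P13Rik stood at 41.1, 51.5 and 46.7 times the highest control in CKO replicates 1 to 3. Foxe3 and Crygs, which did not pass the count filter, were at 22.1 and 11.8 times the highest control in CKO replicate 2, from 45 and 12 reads.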

How the data were processed

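The authors deposited 1 table of raw read counts per gene symbol for 6 libraries. The genome build named per the submitters' processing notes is mm9, and the tools named there are DESeq 2.13, HTSeq 0.5.4p3 and BWA 0.7.6a-r433, without their roles. Strand handling, read length and annotation: not given in the sources used here. Lines of a merge conflict (3), 1 blank line and 1 repeated gene were dropped. Counts were analysed with edgeR 4.0.16 in R 4.3.3: filterByExpr (minimum count 10, leaving 14609 genes), TMM scaling and the quasi-likelihood test with genotype as the only term, Benjamini-Hochberg adjusted over all genes, threshold 0.05. DESeq2 1.42.0 and limma 3.58.1 (voom) were alternatives. The script was tested on simulated data. No pair of replicates agreed within sampling noise (lowest chi-square per degree of freedom 5.77). Log2 CPM used a prior count of 2. The members, lists and tests were chosen with earlier results of these data known. Named are all members, Thap11, up to 4 called genes of each list or its 2 most abundant, and the 8 genes most like the members, with others said to be picked later, and some genes are not reported here. The lists were alpha and beta crystallins, other gamma crystallins, other lens fibre genes, lens transcription factors, lens epithelium, lens capsule, FGF receptors and targets, surface ectoderm and cornea, periocular mesenchyme, pigment epithelium, retinal neurons, retinal progenitors (5 genes, summed level only), ciliary margin, blood vessels, erythroid cells, and macrophages and microglia. Promoter windows came from RefSeq (GRCm38.p6, all 10 members matched by symbol) and transcript lengths, one protein-coding transcript per gene, from GENCODE M21. That build differs from the counts' mm9, and sequences were joined by symbol only.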

Additional observations from a re-analysis of the deposited data

How the results depend on the processing

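All 110 alternative fold changes of single members were above 0 (log2 2.09 to 9.68, no value being taken under the other filters). Counts of calls moved, and those of members describe the fits and test nothing, as the same values chose the members. With DESeq2 there were 117 higher and 209 lower genes, including 10 members, 10 other crystallins and lens fibre genes and 1 gene of the remaining lists, Fgfr1, against 28, 103, 0, 1 and 0 by edgeR. Leaving out 1 library gave 6 to 72 genes higher, 10 to 147 lower, 0 to 8 members and 0 to 7 other lens genes, and a median member log2 fold change of 5.51 (without CKO replicate 1) to 8.92 (without CKO replicate 2). Among these 6 fits members were called only without CKO replicate 2, and 72 higher genes came without control replicate 2. With the replicate number as a block, 7 members and 6 other lens genes were called, with 40 genes higher and 113 lower. The titles share only a number: deviations of same-numbered libraries correlated at 0.336, 0.107 and -0.00775, and not every library correlated best with its own number. Divided by coding length, gamma A to F made up 24.03%, 18.1% and 21.3% of lens reads in control replicates 1 to 3, against 30.4%, 8.32% and 40.8% in the CKO, which kept the order of the CKO libraries. The remaining scalings and filters moved no count by over 1.5 times. Single gamma genes in the controls and CKO replicate 2 rest on 3 to 36 reads, so their shares carry wide intervals.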

Other observations

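Capn3, a calpain protease gene in no list, ranked high among genes with a profile like the members and was picked after its values were seen. It had 115, 140 and 113 reads in the controls and 10058, 130 and 492 reads in CKO replicates 1 to 3, so that CKO replicate 2 lay below the highest control once scaled (0.795 times) and CKO replicate 3 at 3.29 times. In CKO replicate 1 alone, Rspo1, a secreted activator of WNT signalling, stood at 12.5 times the highest control and Htra3, a serine protease gene, at 10.7 times. In CKO replicates 2 and 3 Rspo1 was at 0.395 and 0.721 times and Htra3 at 2.18 and 0.694 times.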
